A study of Mus musculus with 12 samples.

Results

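The genes described here encode the enzymes that remove superoxide, peroxides and reactive electrophiles, together with targets of NRF2, the transcription factor that induces many of them. They are 32 genes, chosen by name from 54751 features in a table of normalised counts from mouse hearts, each matched by symbol to its Ensembl row and by no threshold on a measured value, though with earlier results of these data known. Total RNA of hearts from C57BL/6N mice aged 52 weeks was depleted of ribosomal RNA, primed with random hexamers and sequenced in 6 libraries. The 3 control libraries are labelled Rexo2loxP/loxP and the 3 knockout libraries Rexo2loxP/loxP, +/Ckmm. Both groups thus carry loxP sites in Rexo2, the gene of an oligoribonuclease, and the knockout adds an allele named for Ckmm, the gene of muscle creatine kinase, whose promoter is a usual driver of Cre in cardiac and skeletal myocytes. No group with the Ckmm allele and an intact Rexo2 was compared, so effects of that allele and of Rexo2 loss cannot be told apart. Cells of the heart other than myocytes would keep Rexo2 under such a promoter. The columns give a group and a library number, such as control 490, and nothing ties each library to its own mouse, so p-values cover only the spread between these libraries, which may be partly technical. A second assay of heart mitochondria (PARE), with 3 libraries per group, was not analysed here.

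Superoxide leaks from the respiratory chain and is turned into hydrogen peroxide by superoxide dismutases, SOD2 in the mitochondrial matrix and SOD1 mainly in the cytosol. Catalase, glutathione peroxidases and peroxiredoxins then reduce the peroxide, the last 2 families drawing electrons from glutathione or thioredoxin, and the reductases GSR, TXNRD1 and TXNRD2 restore these with NADPH. NRF2, encoded by Nfe2l2, is held low by KEAP1 and CUL3, and when oxidants or electrophiles modify KEAP1 it pairs with small MAF proteins and binds antioxidant response elements near its target genes. Heart muscle is rich in mitochondria and relies on the matrix enzymes SOD2 and PRDX3.

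The core of the antioxidant response element, TGACNNNGC on either strand, was searched in RefSeq promoters of GRCm38.p6, from 250 bases before to 50 bases after each start the table lists. A gene can have several such starts, 3 for Txnrd1, and any of them counted. Promoters were matched for 27 of the 32 members, and 7 of them (25.9%) held the core, against 14.0% of the 27025 genes with a promoter. Those 7 were Gclm, Txnrd1, Srxn1, Prdx1, Sod1, G6pdx and Me1, with the cores of Srxn1 and Me1 reaching past the start. The stricter form TGACTCAGC, which every TGACNNNGC search also finds, lay in 2 of the 27 members' promoters (7.41%) and in 0.503% of all genes. The 5 cores before the start are shown because this element is what defines many of these genes as NRF2 targets, each read 5′ to 3′ on the strand of its gene, with the core in capitals and 20 bases on each side. All 5 are read on the opposite strand.
Prdx1, chr4:116685446-116685494, gene on the plus strand: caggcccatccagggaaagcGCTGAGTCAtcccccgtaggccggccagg
Txnrd1, chr10:82859094-82859142, gene on the plus strand: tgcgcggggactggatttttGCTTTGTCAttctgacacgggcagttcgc
Gclm, chr3:122245403-122245451, gene on the plus strand: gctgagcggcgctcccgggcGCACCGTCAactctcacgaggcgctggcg
Sod1, chr16:90220686-90220734, gene on the plus strand: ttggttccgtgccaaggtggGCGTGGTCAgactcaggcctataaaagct
G6pdx, chrX:74428909-74428957, gene on the minus strand: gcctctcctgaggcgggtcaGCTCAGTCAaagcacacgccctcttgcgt
The Txnrd1 core lies before a start inside the gene, which runs from 82833951 to 82897724, and not at its outer end. The core of Prdx1 ends 124 bases before its start and that of Sod1 ends 47 bases before. A match is a description of letters and not evidence of binding, and elements farther from a start lie outside this window.

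Depth ran from 41979163 to 50764023 recovered reads per library, and 1 read was worth 0.894 to 1.13 normalised counts, so a normalised count is close to 1 read. Cardiomyocyte markers summed to 401500 to 443200 normalised counts in the controls and 398900 to 431000 in the knockouts, while all 5 adipocyte and all 4 skeletal muscle markers averaged under 10 counts. Reads of mitochondrial DNA (mtDNA) made up 69.6 ± 0.34% in the controls and 71.6 ± 0.23% in knockout libraries (SD, n = 3). Control 490 stood apart from the other controls, with chi-squares per degree of freedom of 14.5 and 15.0 where the other control pair had 3.52 and knockout pairs 4.84 to 6.36, so values without it are given below for every member that it moved by over 1.5 times and for Prdx3 and Sod2. Rexo2 held 330 ± 37.3 normalised counts in the controls and 292 ± 20.2 in the knockouts with overlap, and since the sources used here do not name the deleted exons, this whole-gene count does not check the labels. Transcript lengths were not used, so levels are compared within a gene and not between genes, and fewer cells of a type and less RNA per cell cannot be told apart in bulk tissue.

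No antioxidant gene passed the adjusted test between the genotypes. The test was limma on log2(normalised count + 1), adjusted over all 18250 features with a mean of at least 10 counts, of which 0.0219% were called at an adjusted p under 0.05. Of the 31 members past that filter limma called 0, and so did edgeR, which called 0.0274% of all features. DESeq2 on recovered reads and the authors' deposited table each gave an adjusted p to 22 members and called 0 of them, where they called 0.437% of features. At an unadjusted p under 0.05 limma had 3 members, Prdx3, Prdx4 and Sod2, edgeR had those and Nqo1, and DESeq2 and the deposited table had Prdx3 and Sod2. The same unadjusted p was reached by 3.7% of all features with limma, 3.78% with edgeR and 1.55% with DESeq2 and in the deposited table. All 3 limma members were lower in the knockouts, where 1.98% of all features were lower and 1.72% higher at that p. The median log2 fold change of the 31 was 0.012, beside 0.00056 over all features, with 16 members above 0 and 15 below. Groups did not overlap in 5 members that were lower and 2 that were higher, where 9.51% of all features did not overlap, 4.9% lower and 4.61% higher.

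**Figure D1:**
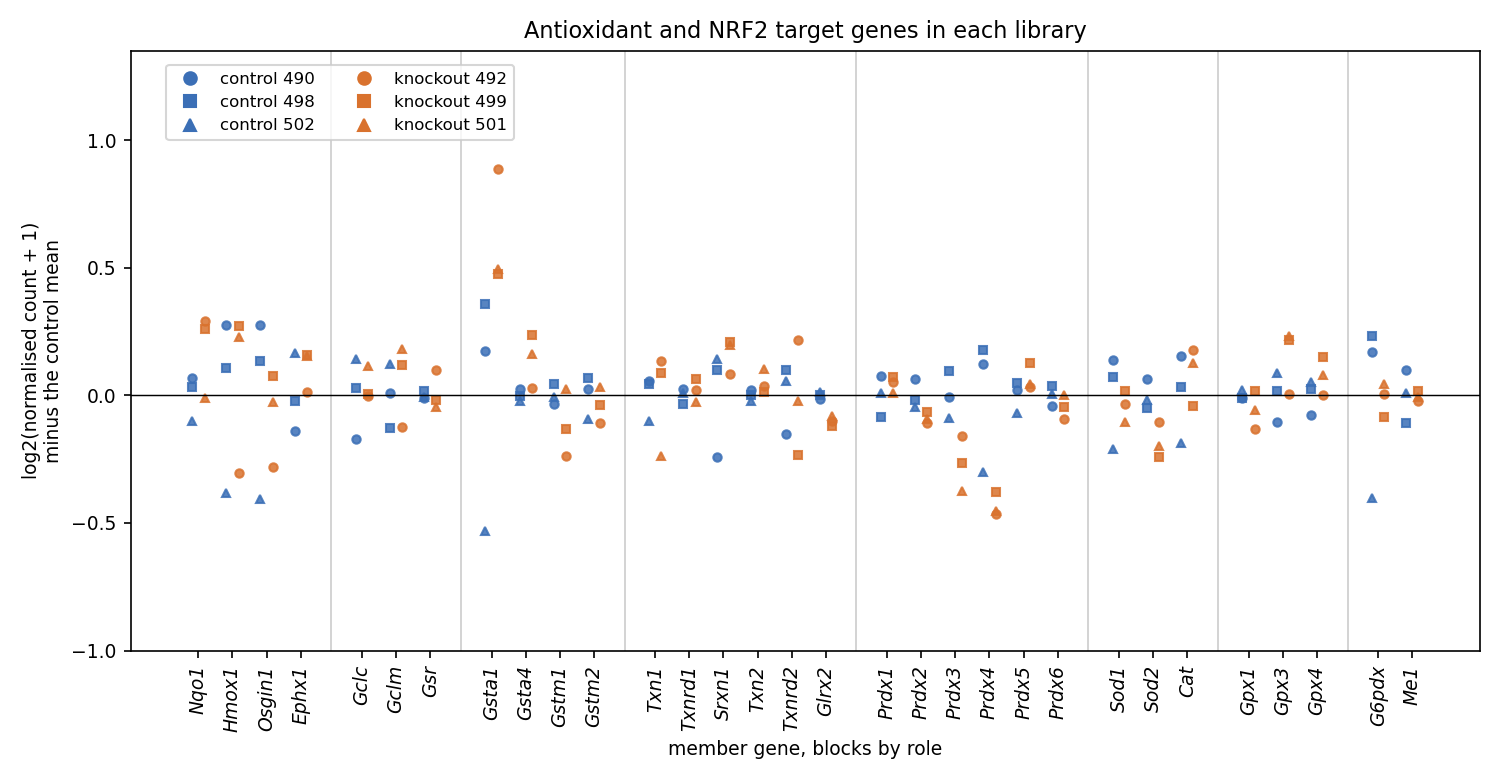
Each point is 1 library's log2(normalised count + 1) of a member gene on the vertical axis, less the mean of the 3 controls, with controls in blue, knockouts in orange and blocks by role. Most members scatter around 0 in both groups. All 3 knockout libraries lie below all 3 controls for Prdx2, Prdx3, Prdx4, Sod2 and Glrx2 and above them for Gsta1 and Gsta4.

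The 2 smallest p-values among the members belonged to Prdx3 and Sod2, enzymes of the mitochondrial matrix that were lower in every knockout library, and neither passed the adjusted test. Sod2 (ENSMUSG00000006818.5, chromosome 17, 13007839 to 13018119) encodes the manganese superoxide dismutase. It held 9282, 8587 and 8773 normalised counts in control libraries 490, 498 and 502 against 8263, 7502 and 7737 in knockout libraries 492, 499 and 501. Every knockout library lay below every control, with means of 8881 ± 359.8 and 7834 ± 389.5 (SD, n = 3), so the knockout mean was 88.2% of control. The log2 fold change was -0.18 ± 0.050 (SE), with 95% limits of -0.29 and -0.074, a limma unadjusted p of 0.00284 and an adjusted p of 0.797. Without control 490, the highest control for Sod2, the log2 fold change was -0.15, at a limma unadjusted p of 0.0123 and an adjusted p of 0.996.

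Prdx3 (ENSMUSG00000024997.7, chromosome 19, 60864066 to 60874538), the peroxiredoxin of the matrix, removes most of the hydrogen peroxide there. It held 1836, 1974 and 1736 normalised counts in the controls and 1654, 1535 and 1423 in knockout 492, 499 and 501. The groups did not overlap, and the means were 1849 ± 119.6 and 1537 ± 115.8 (SD, n = 3), 83.1% of control. Its log2 fold change was -0.27 ± 0.067 (SE), with 95% limits of -0.41 and -0.12, a limma unadjusted p of 0.00142 and an adjusted p of 0.472. Without control 490 the log2 fold change of Prdx3 was still -0.27. In the authors' deposited table the adjusted p was 0.122 for Prdx3 and 0.274 for Sod2. Leaving out any 1 library kept both below 0, between -0.32 and -0.21 for Prdx3 and between -0.22 and -0.15 for Sod2, with limma unadjusted p-values up to 0.0130 and 0.0209. Under equal totals, where the larger mtDNA share of the knockouts lowers every other gene, limma adjusted p-values were 0.0824 for Prdx3 and 0.0802 for Sod2. Without a trended prior limma gave unadjusted p-values of 0.0259 for Prdx3 and 0.0508 for Sod2.

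The other 3 mitochondrial members had smaller estimates, whose differences from Prdx3 and Sod2 were not tested. Glrx2, a glutaredoxin that reduces protein disulfides with glutathione, held 289, 291 and 294 normalised counts in the controls and 272, 268 and 275 in the knockouts. Its groups did not overlap, and the SDs of 2.73 and 3.66 were smaller than counting alone gives at this depth (16.6 and 16.9), so that closeness of the libraries is not a measure of biological spread. The log2 fold change of Glrx2 was -0.10 with a 95% confidence interval of -0.28 to 0.078, a limma unadjusted p of 0.246 and an adjusted p of 1.00. Txn2, mitochondrial thioredoxin, held 1082, 1069 and 1050 normalised counts against 1094, 1076 and 1145, a log2 fold change of 0.050. Txnrd2, the reductase that recharges it and thereby PRDX3, ranged from 115 to 137 in the controls and from 109 to 149 in the knockouts, with overlap. Its 95% confidence interval, -0.32 to 0.29, and that of Glrx2 include the Prdx3 value. The 95% confidence interval of Txn2, -0.073 to 0.17, includes neither the Prdx3 nor the Sod2 value. Of the 5 members grouped here as mitochondrial, 3 were thus lower without overlap, Glrx2 among them, where 4.9% of all features were, and 2 overlapped. Counts were per gene, so transcripts from the 4 starts listed for Glrx2 were not told apart. The median log2 fold change of the 5 was -0.10, beside 0.0082 for the 16 cytosolic members past the filter. For the 4 members found in mitochondria and elsewhere, Prdx5, Gpx1, Gpx4 and Gsr, the median was 0.040. Of those 4, 3 lay above 0 and all overlapped between the groups.

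**Figure D2:**
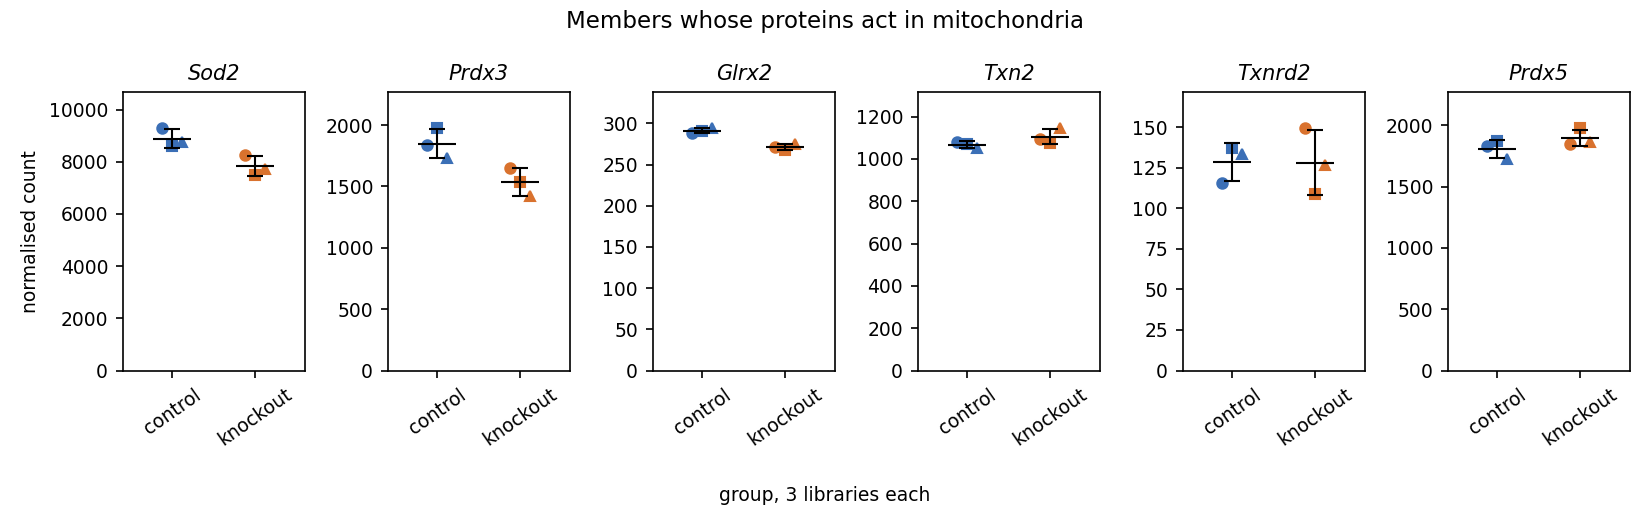
Normalised counts, on axes from 0, of 5 members whose proteins act in mitochondria and of Prdx5, which is also found elsewhere, with 1 point per library, a bar at the group mean and error bars of 1 SD (n = 3). Sod2, Prdx3 and Glrx2 lie lower in all 3 knockout libraries, while Txn2, Txnrd2 and Prdx5 overlap.

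A mitochondrial gene and its counterpart outside the matrix were also compared as a log2 ratio within each library, which does not move with the scaling of a library. For Prdx3 against Prdx1, a main peroxiredoxin of the cytosol, the log2 ratio was 0.59, 0.85 and 0.57 in the controls and 0.46, 0.33 and 0.28 in knockout 492, 499 and 501. The groups did not overlap, with a difference of -0.31 and an exact permutation p of 0.1, the smallest that 3 libraries against 3 allow, or 0.4 adjusted over the 4 pairs. For Sod2 against Sod1 the log2 ratio was 3.92, 3.88 and 4.19 in the controls and 3.93, 3.74 and 3.90 in the knockouts, which overlapped (difference -0.14, exact permutation p = 0.5). Control 502 had the lowest Sod1 level of the 6 libraries, and without it the difference was -0.044. The ratio of Txn2 to Txn1 differed by 0.055 (exact permutation p = 1.0) and that of Txnrd2 to Txnrd1 by -0.033 (exact permutation p = 0.9), both with overlap and with a sign that turned without a single library: -0.087 without knockout 501 for the first, 0.032 without control 498 and 0.10 without knockout 499 for the second. Averaged over members within a library, mitochondrial minus cytosolic log2 levels were 1.02, 1.05 and 1.12 in the controls and 0.99, 0.82 and 0.90 in the knockouts, given as a description without a test. Knockout minus control, the mitochondrial average differed by -0.10 and the cytosolic average by 0.057. The cytosolic average includes Gsta1, at a log2 fold change of 0.62 on few reads, while the cytosolic median log2 fold change was 0.0082.

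**Figure D3:**
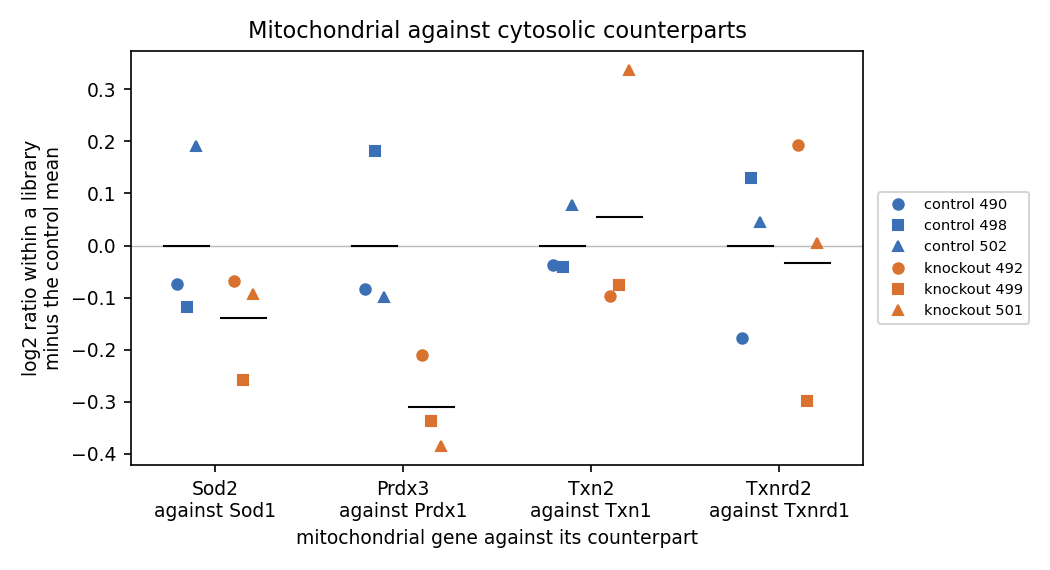
The vertical axis is the within-library log2 ratio of a mitochondrial gene to its counterpart, less the control mean, with 1 point per library and a bar at each group mean. Only Prdx3 against Prdx1 has all 3 knockout libraries below all 3 controls among the 4 pairs.

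Among the other peroxiredoxins the values ran both ways. Prdx4 (chromosome X, 155323918 to 155342272), the peroxiredoxin of the endoplasmic reticulum, held 79.5, 82.7 and 59.0 normalised counts in the controls and 52.6, 55.9 and 53.0 in knockout 492, 499 and 501. The knockout libraries were all lower, though control 502 lay close to them. The knockout SD of Prdx4, 1.775, was smaller than the 7.51 that counting alone gives. The log2 fold change was -0.43 ± 0.18 (SE), with 95% limits of -0.82 and -0.046, a limma unadjusted p of 0.0308 and an adjusted p of 1.00. At under 100 counts per library Prdx4 was among the less deeply measured members, and its limma unadjusted p was over 0.05 without control 490, control 498, knockout 492 or knockout 501, the highest being 0.119. Prdx2, abundant in red blood cells as well as in cytosol generally, held 1776, 1680 and 1645 normalised counts in the controls and 1576, 1623 and 1593 in the knockouts, without overlap and with a log2 fold change of -0.090 (limma adjusted p = 1.00). Its knockout SD, 23.8, was likewise smaller than the 40.9 that counting alone gives. The 6 erythroid markers summed to 17320 to 22630 normalised counts in the controls and 16900 to 23660 in the knockouts, and their part in the Prdx2 value was not tested.

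Prdx1, Prdx5 and Prdx6 overlapped between the groups. Prdx5, found in mitochondria, peroxisomes and cytosol, had a log2 fold change of 0.069, with 1725 to 1869 normalised counts in the controls and 1848 to 1975 in the knockouts. Prdx1 stood at 0.044 and Prdx6, which also has phospholipase activity, at -0.046 on the same log2 fold change scale. The 95% confidence interval of Prdx1 ran from -0.085 to 0.17, so a change of the size seen for Prdx3 was outside it. Prdx1 and Prdx5 turned below 0, to -0.026 and -0.0014, when libraries were scaled to equal totals, which shifts every gene by about -0.07.

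Sod1 and Cat overlapped between the groups. Sod1, the copper and zinc dismutase, held 610, 582 and 479 normalised counts in the controls and 541, 561 and 516 in the knockouts, a log2 fold change of -0.041 that was 0.029 without control 490. Cat, the peroxisomal catalase, held 2375, 2178 and 1872 normalised counts in the controls and 2410, 2068 and 2327 in the knockouts. Control 502 was the lowest library for both genes, and without it the log2 fold change of Cat went from 0.087 ± 0.081 (SE), with 95% limits of -0.087 and 0.26 and a limma unadjusted p of 0.302, to -0.0070.

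Nqo1, a quinone reductase widely used as a readout of NRF2, did not pass the adjusted test. It (chromosome 8, 107388225 to 107403205) held 727, 711 and 648 normalised counts in control libraries 490, 498 and 502 against 849, 831 and 689 in knockout libraries 492, 499 and 501. Knockout 492 and 499 lay above every control, while knockout 501 lay between control 502 and control 498. The log2 fold change was 0.18 with a 95% confidence interval of -0.0019 to 0.36, a limma unadjusted p of 0.0521 and an adjusted p of 1.00. Without knockout 501 it was 0.27, and without knockout 492 it was 0.12.

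The other inducible detoxification genes overlapped. Hmox1, heme oxygenase 1, which is strongly induced by heme and oxidants, held 92.0, 81.8 and 58.0 normalised counts in the controls and 61.2, 91.8 and 89.1 in the knockouts. Its libraries spanned a similar range in both groups, and the log2 fold change of 0.065 turned to -0.13 without control 502, -0.038 without knockout 499 and -0.017 without knockout 501. The macrophage markers, of cells that express Hmox1 strongly, had higher means in the knockouts for 5 of 5 genes, with 1 at a limma unadjusted p under 0.05 and sums of 1976 to 2313 against 2233 to 2550 normalised counts, and their part in the Hmox1 value was not tested. Osgin1, an oxidative stress-induced growth inhibitor, was lowest in the libraries that were lowest for Hmox1, with 27.5 normalised counts in control 502 and 30.1 in knockout 492 against 36.1 to 44.7 in the other 4. The log2 fold change of Osgin1 was -0.077 with a 95% confidence interval of -0.60 to 0.44 (limma unadjusted p = 0.754). Ephx1, microsomal epoxide hydrolase, held 372, 403 and 460 normalised counts in the controls and 414, 457 and 457 in the knockouts, a log2 fold change of 0.11 ± 0.090 (SE), with 95% limits of -0.085 and 0.30 (limma unadjusted p = 0.246). It was 0.039 without control 490 and 0.19 without control 502.

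Glutathione supply differed by less than the spread between libraries. Gclc and Gclm, the catalytic and modifier subunits of the rate-limiting enzyme of glutathione synthesis, had log2 fold changes of 0.038 ± 0.11 and 0.059 ± 0.099 (SE), with limma unadjusted p-values of 0.729 and 0.557. The 95% limits were -0.20 and 0.27 for Gclc and -0.15 and 0.27 for Gclm. Gclm ranged from 329 to 392 normalised counts in the controls and from 331 to 408 in the knockouts, and Gclc from 178 to 221 and from 200 to 217. Gsr, the reductase that regenerates glutathione, stood at 0.012 with a 95% confidence interval of -0.20 to 0.22. The sign of these values turned under equal totals, to -0.031 for Gclc, -0.011 for Gclm and -0.058 for Gsr, so no direction is given for them.

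The glutathione transferases, which attach glutathione to electrophiles, held the only members that were higher without overlap. Gsta1, Gsta2 and Gsta4 lie together on chromosome 9, between 78191966 and 78347192, with Gclc nearby from 77754535 to 77794489, and Gstm1 and Gstm2 lie together on chromosome 3, between 107981702 and 108017973. Gsta4, which acts on lipid peroxidation products such as 4-hydroxynonenal, held 385, 378 and 373 normalised counts in the controls and 386, 447 and 424 in the knockouts. Knockout 492 lay just above the highest control, and the log2 fold change was 0.14 with a 95% confidence interval of -0.030 to 0.32, a limma unadjusted p of 0.0982 and an adjusted p of 1.00. The control SD of Gsta4, 5.88, was smaller than the 19.0 that counting alone gives.

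Gsta1 was measured on few reads, 20.6, 23.5 and 12.2 normalised counts in the controls and 34.3, 25.6 and 25.9 in the knockouts. Its log2 fold change of 0.62 had a 95% confidence interval of -0.031 to 1.27 and a limma unadjusted p of 0.0602. It was 0.35 (limma unadjusted p = 0.248) without control 502 and 0.80 (limma unadjusted p = 0.0342) without control 498. Gsta2, a close copy of Gsta1, was the 1 member under the filter. It held 3.57, 3.76 and 0 normalised counts in the controls and 5.37, 0 and 0 in the knockouts, where a count of 0 allows up to 3 reads, or 3.05 normalised counts in control 502, 2.84 in knockout 499 and 3.38 in knockout 501. The sources used here do not say how reads of such near-identical genes were divided, so Gsta1 and Gsta2, and likewise Gstm1 and Gstm2, are uncertain. Gstm1 ranged from 1014 to 1070 normalised counts in the controls and from 881 to 1058 in the knockouts (log2 fold change -0.11, limma unadjusted p = 0.128), and Gstm2 stood at -0.038.

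Glutathione peroxidases overlapped between the groups as well. Gpx3, the secreted selenoenzyme found in plasma, held 851, 926 and 971 normalised counts in the controls and 918, 1062 and 1074 in the knockouts. Knockout 499 and 501 were above every control and knockout 492 was not, with a log2 fold change of 0.15, a 95% confidence interval of -0.011 to 0.31 and a limma unadjusted p of 0.0648. Without control 490 it was 0.099. Gpx4, which reduces lipid hydroperoxides and protects against ferroptosis, ranged from 1286 to 1409 normalised counts in the controls and from 1360 to 1506 in the knockouts. Its log2 fold change of 0.077 ± 0.061 (SE) had 95% limits of -0.054 and 0.21 (limma unadjusted p = 0.227), and it was 0.037 without control 490 and 0.0066 under equal totals. Gpx1, present in cytosol and mitochondria, stood at -0.059 with a 95% confidence interval of -0.21 to 0.092.

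In the cytosolic thioredoxin system all 3 genes overlapped between the groups. Txnrd1, a classic NRF2 target, held 733, 704 and 726 normalised counts in the controls and 732, 754 and 707 in the knockouts. Its log2 fold change was 0.020 with a 95% confidence interval of -0.12 to 0.16, one of the narrower intervals among the inducible genes. Srxn1, sulfiredoxin, which rescues overoxidised peroxiredoxins, held 359, 456 and 470 normalised counts in the controls and 451, 491 and 487 in the knockouts. Control 490 was the low library for Srxn1, and the log2 fold change of 0.16 ± 0.099 (SE), with 95% limits of -0.051 and 0.38 (limma unadjusted p = 0.124), was 0.040 without it. Txn1, cytosolic thioredoxin, ranged from 176 to 197 normalised counts in the controls and from 160 to 207 in the knockouts, a log2 fold change of -0.0051.

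The enzymes that supply NADPH to these reductases did not differ beyond their spread. G6pdx, which opens the pentose phosphate pathway, ranged from 74.3 to 116 normalised counts in the controls and from 92.8 to 102 in the knockouts. Me1, cytosolic malic enzyme, ranged from 858 to 992 and from 910 to 936. G6pdx had a log2 fold change of -0.011 ± 0.17 (SE), with 95% limits of -0.38 and 0.36, and that of Me1 -0.0037 ± 0.066 (SE), with limits of -0.15 and 0.14 (limma unadjusted p-values of 0.949 and 0.956). Leaving out control 490, which stood apart, moved the log2 fold change to 0.074 for G6pdx, 0.046 for Me1, 0.20 for Hmox1, 0.060 for Osgin1, 0.16 for Cat, 0.081 for Prdx1 and -0.058 for Prdx2. In the glutathione and thioredoxin genes it gave -0.046 for Gclc, 0.0064 for Gsr, 0.024 for Txn1, 0.032 for Txnrd1 and -0.089 for Txnrd2. None of these members was called with or without that library. The 7 members with the response element core had a median log2 fold change of 0.020, ranging from -0.041 to 0.16, and the 19 tested members whose promoters lacked it had a median of -0.013, ranging from -0.43 to 0.62.

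**Figure D4:**
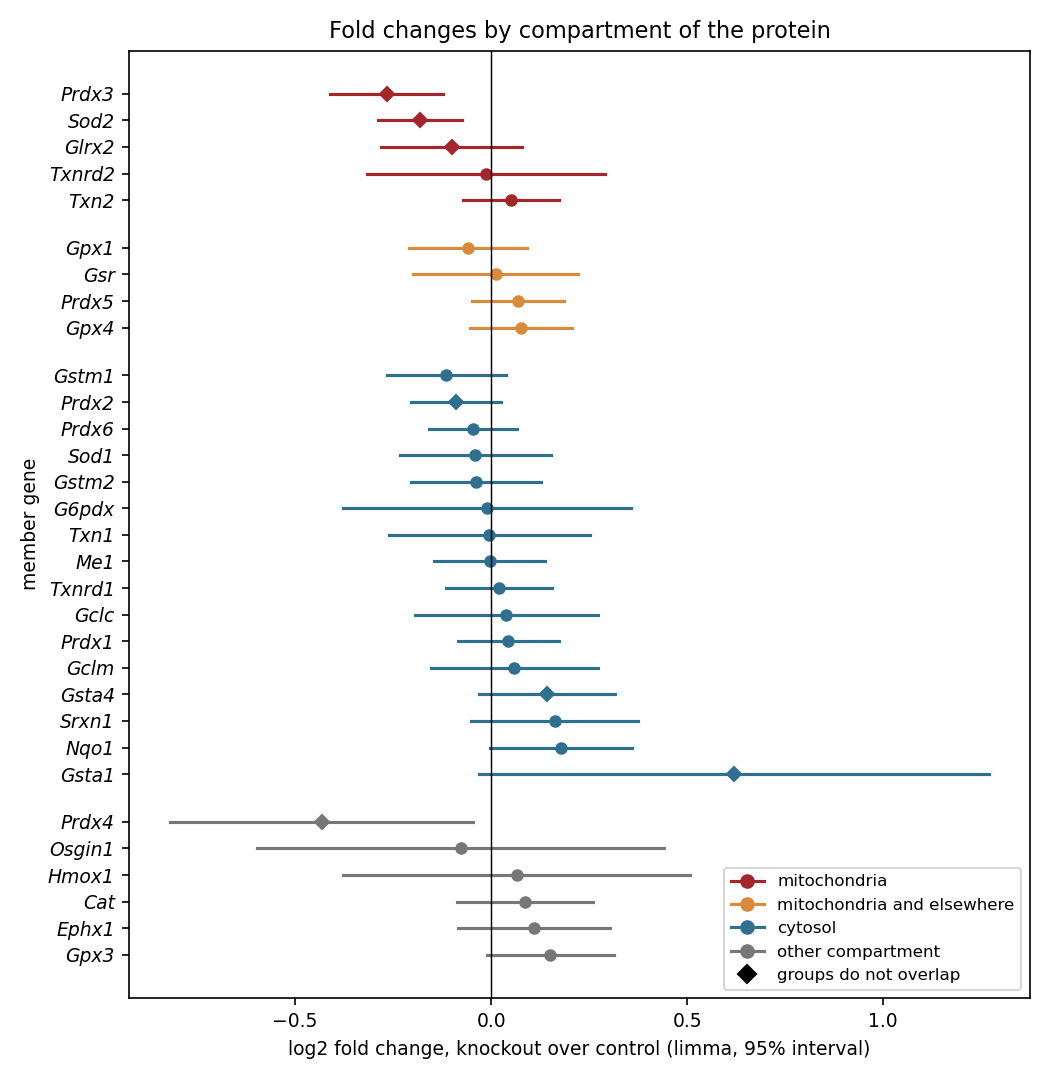
Points are limma log2 fold changes of knockout over control on the horizontal axis with 95% intervals, for the 31 members past the filter, coloured by the compartment of the protein, with diamonds where the groups do not overlap. The intervals of Prdx3, Sod2 and Prdx4 lie below 0, and the other 28 include 0.

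The regulators of NRF2 showed no called gene in either direction among 13 tested. Nfe2l2, which encodes NRF2, held 1135 ± 56.5 normalised counts in the controls and 1130 ± 51.0 in the knockouts (SD, n = 3). The log2 fold change was -0.0058 at a 95% confidence interval of -0.14 to 0.13. Keap1, its repressor, stood at -0.045, and the list's median was -0.028 with 2 of 13 above 0. Sqstm1, the autophagy adaptor that binds KEAP1, had the smallest p of the list, with a log2 fold change of 0.10 (limma unadjusted p = 0.151). Bach2, a repressor at the same elements, held 152 ± 7.28 and 169 ± 9.24 normalised counts without overlap, at 0.15 (limma unadjusted p = 0.190). Both SDs of Bach2 were smaller than counting alone gives (12.0 and 13.3). NRF2 is controlled mainly through its protein, which was not measured here.

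Of 22 further NRF2 targets 20 passed the filter, and limma called 0, at a median log2 fold change of -0.0025, 10 lying above 0. Fech, ferrochelatase, which inserts iron into heme in mitochondria, was lower in every knockout library, with 1386, 1561 and 1445 normalised counts in the controls and 1161, 1211 and 1217 in the knockouts. Its log2 fold change was -0.29 with a 95% confidence interval of -0.42 to -0.16, a limma unadjusted p of 0.000297 and an adjusted p of 0.208. DESeq2 on the recovered reads called Fech (adjusted p = 0.0326). The authors' deposited table, itself from DESeq2 on the same libraries, held the same value (0.0326), so it is not a separate call. Limma under equal totals, which shifts every gene by about -0.07, also called Fech (adjusted p = 0.0272), and edgeR did not (adjusted p = 0.226). Idh1, cytosolic isocitrate dehydrogenase and a source of NADPH, had the next smallest p, with a log2 fold change of 0.11 (limma unadjusted p = 0.167). The ferritin chains Fth1 and Ftl1, which store iron, stood at -0.023 and 0.068, both with overlap.

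Of 35 other redox enzymes 34 passed the filter, and limma called 0, at a median log2 fold change of 0.019, 21 lying above 0. Msrb1, a selenoprotein that reduces oxidised methionine, held 709.5, 624 and 715 normalised counts in the controls and 750, 767 and 864 in the knockouts, higher without overlap at 0.22 (limma unadjusted p = 0.0148, adjusted p = 1.00). Nnt, the mitochondrial transhydrogenase that makes matrix NADPH, held 411, 420 and 400 against 385, 380 and 308 normalised counts, lower without overlap at -0.20 (limma unadjusted p = 0.0473). The control SD of Nnt, 10.2, was smaller than the 19.7 that counting alone gives. Knockout 501 was the lowest library for Nnt. Without it the log2 fold change of Nnt was -0.10 (limma unadjusted p = 0.259), and Nnt was also over 0.05 without any 1 control. Msrb1 was at 0.15 without control 498 or without knockout 501, with limma unadjusted p-values of 0.0889 and 0.0797. Sod3, the extracellular dismutase, named after its values were seen, held 360, 359 and 351 normalised counts in the controls and 381, 402 and 404 in the knockouts. It was higher without overlap, at 0.15 with a 95% confidence interval of -0.015 to 0.31 and a limma unadjusted p of 0.0719. The SDs of Sod3, 4.96 in the controls and 12.8 in the knockouts, were smaller than counting alone gives (18.4 and 20.4).

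Among 9 genes of enzymes that produce reactive oxygen species limma called 0, at a median log2 fold change of 0.18, 6 lying above 0. Maob, monoamine oxidase B, which releases hydrogen peroxide at the outer mitochondrial membrane, held 488, 394 and 418 normalised counts in the controls and 358, 331 and 362 in the knockouts. It was lower without overlap, at -0.30 with a 95% confidence interval of -0.50 to -0.10, a limma unadjusted p of 0.00579 and an adjusted p of 1.00. Cybb, the catalytic subunit of the phagocyte NADPH oxidase, held 139, 168 and 148 normalised counts in the controls and 219, 174 and 165 in the knockouts, with overlap, at 0.29 (limma unadjusted p = 0.0468). Without knockout 492 it was 0.16 (limma unadjusted p = 0.236), and the p was also over 0.05 without control 490, control 502 or knockout 499. Knockout 492 was the highest library for Cybb, which is expressed in phagocytes, and the macrophage marker sums given with Hmox1 apply here too, their part not tested.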

How the data were processed

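Per the labels' protocols, total RNA of 6 heart libraries was sequenced after ribosomal RNA depletion. The authors deposited normalised counts, a signal per gene, for which the submitters' processing notes list DESeq2 1.22.2, R 3.5.2, featureCounts, Bowtie2 2.3.4.1 and bedtools, and the builds GRCm38 and mm10 with no role. The sources used here do not say whether counting used strand, so overlapping or antisense genes may share reads. The authors also deposited a DESeq2 table with log2 fold changes, a test score and p-value columns, used as given. Its standard errors were not used.

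Symbols were joined to 54686 of 54715 Ensembl features by identifier without version, and all 32 members matched. Divided by what 1 read is worth in its library, 100% of 156689 nonzero values came out whole (tolerance 0.01). The test was limma 3.58.1 (R 4.3.3) with a trended prior on log2(value + 1), whose added 1 understates changes of low genes. It was 2-sided, for features with a mean of at least 10, and Benjamini-Hochberg adjusted over all of them. The limma test was also run on simulated data, but its recovery of changes as small as those of Prdx3 and Sod2 is not given here. Alternatives covered pseudocount, filter, scaling, limma's prior, edgeR 4.0.16 and DESeq2 1.42.0 on recovered reads, the deposited table, and leaving out each library. Members, gene lists and tests were chosen with earlier results of these data known. All members are named, with SE or interval and p for the 2 of smallest p in each role, and the 2 of smallest p in each related list are named. Nfe2l2, Keap1, Fth1, Ftl1, Sod3, Txnip and the selenoproteins were named outside that rule, after their values were seen. Positions and promoters are from RefSeq, GRCm38.p6, 1-based. Confidence intervals are at 95%, and the floor for a count of 0 is 3 reads and covers counting error only.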

Additional observations from a re-analysis of the deposited data

How the results depend on the processing

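The count of 0 called members held under each alternative run, the smallest adjusted p being 0.0802, for Sod2 under equal totals. The count over all features, 4, was 12 without a filter, 37 under equal totals, 0 without a trended prior, 12 with robust moderation, 33 with DESeq2 and in the authors' deposited table, and 1 to 8 without 1 library (8 without control 490, 1 without control 498, control 502 or knockout 499). In the related lists, 0 became 1 (Fech) under equal totals, DESeq2 and the deposited table. Of 556 member values under alternatives, 517 kept their direction and 39, of 15 members, turned it, none of them called. Under equal totals, which by construction shifts all values by about -0.07, Hmox1 was at -0.0041, Gclc -0.031, Gclm -0.011, Gsr -0.058, Txnrd1 -0.050, Prdx1 -0.026, Prdx5 -0.0014 and Txn2 -0.020. Under equal totals without mtDNA, Txn1 was at 0.022, G6pdx 0.016, Me1 0.024 and Txnrd2 0.014, and Txn1 was 0.0052 with edgeR and 0.0034 with DESeq2 and in the deposited table. Without 1 library the log2 fold change ran from -0.13 to 0.25 for Hmox1, -0.046 to 0.11 for Gclc, -0.0053 to 0.15 for Gclm, -0.032 to 0.040 for Gsr, -0.074 to 0.11 for Txn1, -0.0022 to 0.044 for Txnrd1, -0.15 to 0.029 for Sod1, -0.0070 to 0.16 for Cat, -0.21 to 0.10 for G6pdx, -0.058 to 0.046 for Me1, -0.28 to 0.060 for Osgin1 and -0.13 to 0.098 for Txnrd2, and the ratio differences from -0.087 to 0.13 for Txn2 against Txn1 and -0.15 to 0.10 for Txnrd2 against Txnrd1. The cause of these turns was not tested. No paired analysis was possible because the table's columns carry no replicate numbers, so the replicate block was not run. Gsta1, Osgin1, Prdx4 and Hmox1, all at low counts, had the widest intervals among the members past the filter. The SDs of Hmox1, 17.5 in the controls and 17.0 in the knockouts, were larger than counting alone gives (8.53 and 9.19). For Gsta1, Osgin1 and Prdx4 the control SD was larger than counting alone gives and the knockout SD smaller. The part of depth in these intervals was not tested.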

Other observations

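Selenoproteins, which carry selenocysteine, run through several of the lists above. The 9 given here were grouped after their values were seen, so no test is given for the group. Msrb1 was at a log2 fold change of 0.22, Gpx3 at 0.15, Gpx4 at 0.077, Selenop, the selenium carrier of plasma, at 0.062 and Txnrd1 at 0.020. Those below 0 were Txnrd2 at -0.013, Gpx1 at -0.059, Selenow, a small selenoprotein of muscle, at -0.15 and Selenok, of the endoplasmic reticulum, at -0.19. Under equal totals Txnrd1 was at -0.050 and Selenop at -0.0079, and Txnrd2 was at 0.014 under equal totals without mtDNA. Selenow held 507, 549 and 521 normalised counts in the controls and 474, 479 and 465 in the knockouts, and Selenok held 198, 175 and 178 against 174, 164 and 146, both lower without overlap. Their limma unadjusted p-values were 0.0504 and 0.116, and neither was called. The knockout SD of Selenow, 7.29, was smaller than the 22.3 that counting alone gives. Reads of Selenok are uncertain, since its pseudogene Selenok-ps8 held a mean of 173.5 normalised counts in the controls and 190.0 in the knockouts, higher without overlap.

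Txnip, which binds and inhibits thioredoxin, held 11120, 9330 and 4652 normalised counts in control libraries 490, 498 and 502 against 10130, 7778 and 11730 in knockout libraries 492, 499 and 501. Control 502 had less than any other library, as it had for Sod1, Cat and G6pdx. The log2 fold change of Txnip was 0.31 with an SE of 0.23 (limma unadjusted p = 0.202), and leaving out 1 library moved it between -0.065 and 0.56.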
